A study of Mus musculus with 8 samples.

Results

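Type I interferon stimulated genes were examined in colon of germ-free mice carrying one Candida species or none. The set comprised 30 genes known as classical targets of interferon-alpha and interferon-beta, chosen by symbol. Each symbol was matched to its Ensembl identifier in GENCODE M21. The matching used no measured value, but the set was made with earlier results of these data known. All 30 were found among the 52636 rows of the count table, and all 30 passed the filter on low counts that left 16107 genes for testing. Bulk RNA sequencing was done on colon of C57BL/6 wild-type female mice, 6 weeks old, kept germ-free in gnotobiotic isolators. One group had received 100000000 colony-forming units of C. albicans SC5314 by oral gavage (3 libraries), and another the same dose of C. tropicalis MYA-3404 (2 libraries). Control mice formed the third group (3 libraries), and colon was sampled at day 30. All groups lacked a bacterial microbiota, so no library shows these genes in a conventionally colonised colon. The labels number the libraries of a group but do not tie them to separate mice.

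Interferon-alpha and interferon-beta bind the receptor IFNAR on nearly all nucleated cells. The receptor's kinases JAK1 and TYK2 phosphorylate STAT2, which acts with IRF9 in the factor ISGF3. ISGF3 binds the interferon stimulated response element in promoters and raises a common set of antiviral genes. Interferon-lambda uses another receptor, found mainly on epithelium, but drives the same factor. In the gut these genes also have a steady basal expression that depends in part on the microbiota. Fungi can raise interferon-beta in dendritic cells through C-type lectin receptors and Toll-like receptors.

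The promoters of 5 members are printed because they carry the letters of the response element both in genes that varied widely between libraries, Ifit1, Oas3 and Isg15, and in the steadiest, Oas1a and Bst2. Each is the 250 bases before the annotated start in RefSeq on GRCm38.p6, read 5′ to 3′ on the strand of the gene. Capitals mark every match to GAAA, 2 free bases and GAAA again, or to its reverse complement of TTTC, 2 free bases and TTTC, and matches that overlap form one run of capitals.
Isg15, chr4:156200819-156201068, minus strand: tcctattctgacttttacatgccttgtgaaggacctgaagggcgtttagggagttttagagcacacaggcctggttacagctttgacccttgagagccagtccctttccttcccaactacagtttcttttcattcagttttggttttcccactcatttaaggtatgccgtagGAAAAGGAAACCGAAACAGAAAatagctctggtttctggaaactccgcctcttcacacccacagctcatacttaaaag
Ifit1, chr19:34640639-34640888, plus strand: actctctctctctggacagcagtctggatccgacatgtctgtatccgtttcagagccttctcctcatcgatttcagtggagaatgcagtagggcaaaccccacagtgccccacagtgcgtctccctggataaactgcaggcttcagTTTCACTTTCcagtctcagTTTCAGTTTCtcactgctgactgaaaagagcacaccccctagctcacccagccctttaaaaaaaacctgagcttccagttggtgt
Oas3, chr5:120777660-120777909, minus strand: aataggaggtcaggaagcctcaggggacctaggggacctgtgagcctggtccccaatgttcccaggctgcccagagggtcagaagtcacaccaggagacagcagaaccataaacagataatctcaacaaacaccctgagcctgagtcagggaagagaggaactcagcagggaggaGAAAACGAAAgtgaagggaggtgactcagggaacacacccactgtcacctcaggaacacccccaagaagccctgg
Oas1a, chr5:120907526-120907775, minus strand: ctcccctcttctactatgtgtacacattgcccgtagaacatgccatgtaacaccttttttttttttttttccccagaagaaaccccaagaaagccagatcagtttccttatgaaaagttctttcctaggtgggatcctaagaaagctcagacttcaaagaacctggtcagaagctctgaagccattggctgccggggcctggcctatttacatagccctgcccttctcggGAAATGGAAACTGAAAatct
Bst2, chr8:71537473-71537722, minus strand: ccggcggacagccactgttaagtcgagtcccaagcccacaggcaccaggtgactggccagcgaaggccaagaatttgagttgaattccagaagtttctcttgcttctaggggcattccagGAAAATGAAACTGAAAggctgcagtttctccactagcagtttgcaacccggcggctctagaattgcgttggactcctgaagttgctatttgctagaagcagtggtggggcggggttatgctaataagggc
Isg15 held 3 matches, Ifit1, Oas1a and Bst2 held 2 each, and Oas3 held 1. The RefSeq table gave promoters for 21 of the 30 members. In windows from 250 bases before to 50 after the start, the letters occurred in 11 of these 21 members, which is 52.4%, against 3.99% of the 27025 genes in the table. The other members with a match were Ifit3, Ifit3b, Stat2, Rsad2, Ddx58 and Ifih1. Irf7, Irf9, Ifit2, Oasl1, Oasl2, Ifi44, Xaf1, Cmpk2, Dtx3l and Herc6 had none in this window. The letters were thus shared by members that varied widely between libraries and members that did not, and a match is not evidence of binding.

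Library control 1 stood apart in these genes, and the comparisons with control that rest on it are therefore given with and without it. Control 1 was singled out by these same values. SEs and p-values from fits without it therefore tend to be too small and are descriptive only. Levels are CPM, that is, counts scaled to a common library size after TMM adjustment. Control 1 was the highest of the 8 libraries for 26 of the 30 members, whereas it was the highest for 13.2% of all tested genes. Of the other members, Oas1a and Zbp1 were highest in C. albicans 1, and Oasl1 and Bst2 in C. tropicalis 1. For 18 members, 60% of the set, control 1 held at least 2 times the level of the next control library. Only 2.97% of all tested genes showed such a gap. C. albicans 1 ranked second for 17 members and was the highest of its group for 24, against 38.5% of all genes. C. tropicalis 1 exceeded C. tropicalis 2 for 27 members, against 46.8% of all genes. The members therefore differed among libraries of one group more than most genes did. Their median SD of log2 CPM was 0.45 in C. albicans, 0.39 in C. tropicalis and 0.76 in control libraries, where all tested genes had medians of 0.20, 0.16 and 0.26. In bulk tissue, fewer cells of a type and less RNA per cell cannot be told apart.

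**Figure D1:**
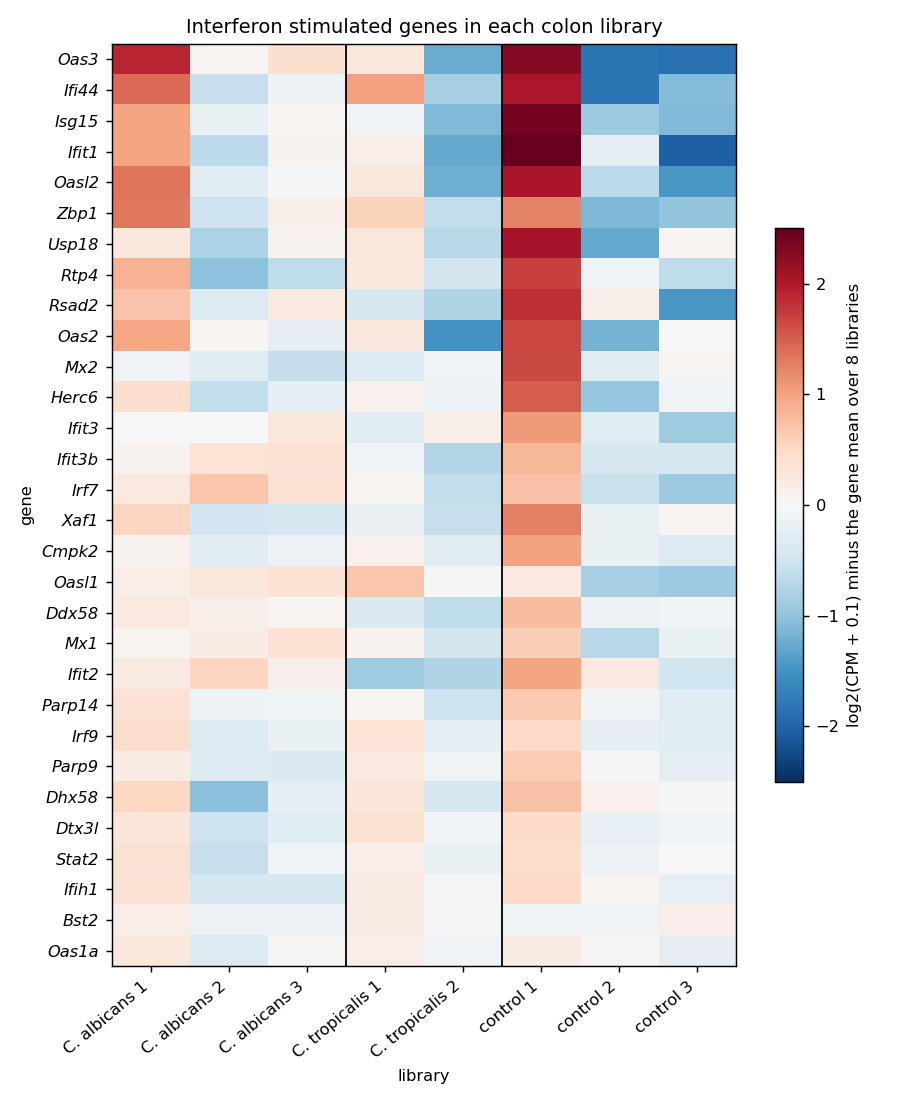
Each row is one of the 30 interferon stimulated genes and each column one library. Colour gives log2(CPM + 0.1) minus the mean of the gene over the 8 libraries, with the scale ending at 2.5 on either side. Genes run from the largest gap between the highest control library and the next, 19.1-fold for Oas3, to the smallest, 1.10-fold for Oas1a. The column of control 1 is red for most genes, and C. albicans 1 follows it in the upper rows.

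The members spanned a wide range of expression. Per kilobase of annotated exon, mean levels over the 8 libraries ran from 0.169 CPM per kb for Ifi44 to 29.0 CPM per kb for Bst2. Oas1a followed Bst2 at 23.5 CPM per kb, then Irf7 at 22.1, Oasl1 at 12.3, Isg15 at 7.73, Irf9 at 7.43 and Stat2 at 6.74 CPM per kb. Mx2 at 0.196 and Herc6 at 0.255 CPM per kb stood with Ifi44 at the low end. The transducers of the signal and Bst2 were thus among the more abundant members, and several inducible effectors among the scarcest. The ratio of the highest to the lowest library was under 2 for 5 members and at least 10 for 8 members. Its median was 3.58 over the members and 1.88 over all tested genes, of which 5.54% reached 10.

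No member passed the threshold in any comparison. An edgeR quasi-likelihood test with Benjamini-Hochberg adjustment over all 16107 genes and a threshold of 0.05 called 0 of 30 members for C. albicans against control, 0 for C. tropicalis against control and 0 for C. tropicalis against C. albicans. The same test called 0.0435%, 0.031% and 0% of all genes in these comparisons. At an unadjusted p under 0.05 the counts of members were 0, 3 and 1. For C. albicans against control, 9.13% of all genes passed that bound above and 6.31% below, and between the species 8.83% above and 14.4% below. DESeq2 also called 0 members in each comparison, among the 26, 27 and 28 for which it gave an adjusted p, while calling 3.39%, 2.57% and 10.5% of all genes. The fold changes below are therefore estimates with wide errors, not changes that passed a test.

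Isg15 encodes a ubiquitin-like protein that is conjugated to other proteins and also secreted (chr4:156199424-156200818, GRCm38, minus strand). It had 8.04, 3.52 and 4.15 CPM in C. albicans libraries 1 to 3 and 3.77 and 1.81 CPM in C. tropicalis libraries 1 and 2, against 21.5, 2.08 and 1.83 CPM in control libraries 1 to 3. Control 1 was far above the rest, while all C. albicans libraries lay above controls 2 and 3. The log2 fold change was -0.70 ± 0.86 (SE) for C. albicans, with an edgeR adjusted p of 0.699, and -1.60 ± 1.03 for C. tropicalis, with an edgeR adjusted p of 0.469. Without control 1 it was 1.42 ± 0.47 for C. albicans (edgeR adjusted p = 0.170) and 0.51 ± 0.51 for C. tropicalis (edgeR adjusted p = 0.692). Usp18, which removes ISG15 from proteins and also restrains the receptor, had 1.74, 0.787 and 1.52 CPM in C. albicans and 1.77 and 0.850 CPM in C. tropicalis, against 6.34, 0.536 and 1.51 CPM in control libraries. Its log2 fold change for C. albicans was -1.05 ± 0.77 (edgeR adjusted p = 0.515), and 0.39 ± 0.58 without control 1 (edgeR adjusted p = 0.748). Herc6, the main ISG15 ligase of mice, ranged from 1.31 to 2.81 CPM in C. albicans and from 1.87 to 2.23 CPM in C. tropicalis, against 1.01 to 6.05 CPM in control libraries.

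The Ifit genes form a cluster on chromosome 19 and encode proteins that bind foreign or incompletely capped RNA. Ifit1 (chr19:34640871-34650009, plus strand) had 6.91, 2.15 and 3.66 CPM in C. albicans and 3.83 and 1.36 CPM in C. tropicalis, against 26.8, 2.92 and 0.753 CPM in control libraries. It varied most of all members, with the highest library 35.7 times the lowest, and the groups overlapped. Its log2 fold change was -1.26 ± 1.04 for C. albicans and -1.97 ± 1.24 for C. tropicalis, with edgeR adjusted p of 0.560 and 0.463. Without control 1 both estimates turned upward, to 1.22 ± 0.71 and 0.51 ± 0.76 (edgeR adjusted p = 0.372 and 0.803).

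Ifit2 (chr19:34550694-34576419, plus strand) differed from this pattern. It had 5.62, 6.93 and 5.30 CPM in C. albicans and 2.51 and 2.78 CPM in C. tropicalis, against 9.60, 5.66 and 3.33 CPM in control libraries. Both C. tropicalis libraries lay below every other library. For C. tropicalis against control the log2 fold change was -1.23 ± 0.42 (edgeR adjusted p = 0.261), and -0.76 ± 0.33 without control 1 (edgeR adjusted p = 0.390). Against C. albicans it was -1.17 ± 0.42 (edgeR adjusted p = 0.140), and -1.17 ± 0.31 without control 1 (edgeR adjusted p = 0.0606). Ifit3 and Ifit3b ranged from 4.89 to 5.98 and from 1.57 to 1.95 CPM in C. albicans, and from 3.997 to 5.44 and from 0.850 to 1.37 CPM in C. tropicalis, against 2.58 to 10.3 and 1.07 to 2.68 CPM in control libraries. These genes are near-identical copies, sharing 51.2% of the 50-base words of Ifit3 and 45.0% of those of Ifit3b, so their split of reads is uncertain.

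The factors that transduce or amplify the signal were comparatively abundant, and their highest library exceeded the lowest by 3.15 times for Irf7, 2.05 times for Stat2 and 1.75 times for Irf9. Irf7 encodes the factor that amplifies interferon-alpha production and is itself an interferon target (chr7:141262706-141266481, minus strand). It had 91.4, 125 and 99.7 CPM in C. albicans and 80.7 and 50.1 CPM in C. tropicalis, against 129, 52.6 and 40.9 CPM in control libraries. Every C. albicans library lay above both C. tropicalis libraries and above controls 2 and 3, but not above control 1. The log2 fold change was 0.51 ± 0.39 for C. albicans and -0.18 ± 0.44 for C. tropicalis against control (edgeR adjusted p = 0.531 and 0.866), and -0.69 ± 0.45 for C. tropicalis against C. albicans (edgeR adjusted p = 0.396). Without control 1 the C. albicans value was 1.17 ± 0.24 (edgeR adjusted p = 0.0895) and the C. tropicalis value 0.48 ± 0.25 (edgeR adjusted p = 0.457).

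Stat2 encodes the ISGF3 subunit that is activated by the receptor (chr10:128270559-128292849, plus strand). It had 50.6, 26.2 and 36.5 CPM in C. albicans and 43.6 and 34.2 CPM in C. tropicalis, against 53.7, 35.4 and 39.5 CPM in control libraries. The groups overlapped, and means were 37.8 ± 12.3 (SD, n = 3), 38.9 ± 6.65 (SD, n = 2) and 42.9 ± 9.64 CPM (SD, n = 3). The log2 fold change was -0.18 ± 0.25 for C. albicans and -0.14 ± 0.28 for C. tropicalis (edgeR adjusted p = 0.728 and 0.829), and 0.04 ± 0.28 between the species (edgeR adjusted p = 0.948). Irf9, the DNA-binding subunit of the same factor, ranged from 30.9 to 53.0 CPM in C. albicans and from 33.2 to 49.2 CPM in C. tropicalis, against 32.4 to 54.0 CPM in control libraries.

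The oligoadenylate synthetase genes lie on chromosome 5 and divided into steady and variable members. The synthetases activate RNase L in response to double-stranded RNA, whereas the Oasl proteins are related in sequence and act in other ways. Oas1a, the steadier, ranged from 34.5 to 53.0 CPM in C. albicans and from 41.3 to 49.3 CPM in C. tropicalis, against 36.9 to 49.6 CPM in control libraries. It shares 57.6% of its 50-base words with other genes, chiefly Oas1g, so its level is uncertain. Oas3 had 12.4, 3.36 and 4.27 CPM in C. albicans and 3.94 and 1.30 CPM in C. tropicalis, against 15.9, 0.834 and 0.807 CPM in control libraries. All C. albicans and C. tropicalis libraries lay between control 1 and the other two controls. Oasl2 had 62.5, 20.3 and 24.1 CPM in C. albicans and 30.3 and 10.5 CPM in C. tropicalis, against 102.0, 15.7 and 9.03 CPM in control libraries. Oas2 was scarcer and ranged from 2.07 to 4.83 CPM in C. albicans and from 0.793 to 2.97 CPM in C. tropicalis, against 1.01 to 7.94 CPM in control libraries.

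Oasl1 in mice binds Irf7 messenger RNA and limits its translation (chr5:114923240-114937915, plus strand). It had 33.8, 36.6 and 38.7 CPM in C. albicans and 48.9 and 29.7 CPM in C. tropicalis, against 35.9, 17.0 and 16.1 CPM in control libraries. All 5 Candida libraries lay well above controls 2 and 3, and control 1 lay among them. Oasl1 had the smallest p of the members for C. albicans against control, with a log2 fold change of 0.66 ± 0.31 (edgeR adjusted p = 0.337). For C. tropicalis against control it was 0.77 ± 0.34 (edgeR adjusted p = 0.324). Without control 1 the values were 1.14 ± 0.21 (edgeR adjusted p = 0.0821) and 1.25 ± 0.23 (edgeR adjusted p = 0.182). Between the species Oasl1 stood at 0.11 ± 0.34 (edgeR adjusted p = 0.881).

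**Figure D2:**
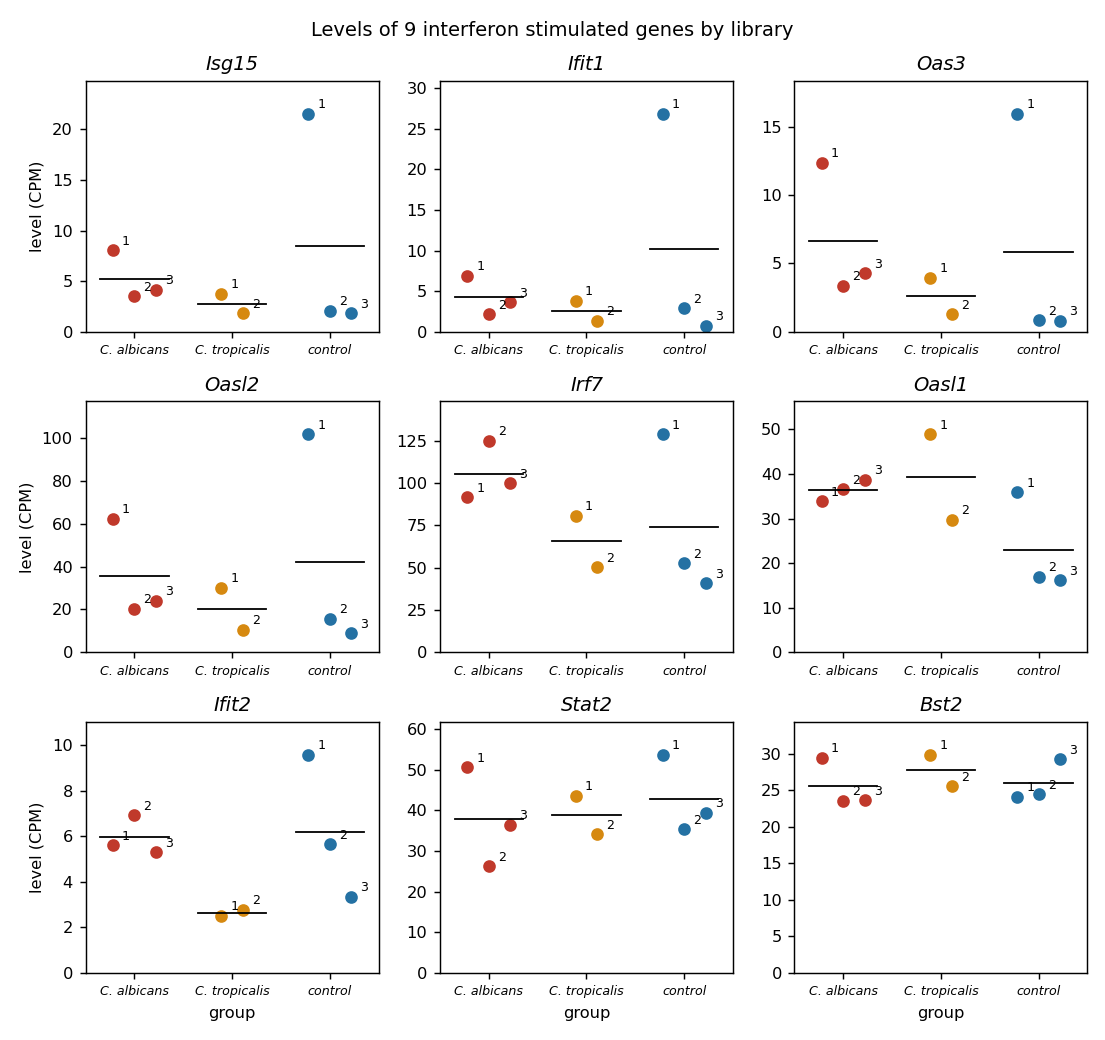
Points give the level in CPM of 9 members in each library, numbered by replicate, and horizontal lines the mean of each group of 3 C. albicans, 2 C. tropicalis and 3 control libraries. Control 1 stands far above controls 2 and 3 in Isg15, Ifit1, Oas3 and Oasl2. Ifit2 is lowest in both C. tropicalis libraries, at 2.51 and 2.78 CPM, and Bst2 stays between 23.6 and 29.9 CPM throughout.

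Bst2 encodes tetherin, which holds budding enveloped viruses at the cell surface (chr8:71534255-71537456, minus strand). It had 29.5, 23.6 and 23.6 CPM in C. albicans and 29.9 and 25.6 CPM in C. tropicalis, against 24.1, 24.4 and 29.3 CPM in control libraries. It was the steadiest member, with the highest library 1.27 times the lowest, and the only one whose highest control was not control 1. The log2 fold change was -0.02 ± 0.15 for C. albicans and 0.10 ± 0.16 for C. tropicalis (edgeR adjusted p = 0.950 and 0.798), and 0.12 ± 0.16 between the species (edgeR adjusted p = 0.715).

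The other effectors followed control 1 to differing degrees. Rsad2 encodes viperin, which makes a chain-terminating nucleotide that halts viral polymerases. It had 5.68, 2.68 and 4.02 CPM in C. albicans and 2.51 and 1.98 CPM in C. tropicalis, against 12.5, 3.81 and 1.183 CPM in control libraries. Both C. tropicalis libraries lay below all C. albicans libraries and between controls 2 and 3. Its log2 fold change was -1.37 ± 0.81 for C. tropicalis against control and -0.87 ± 0.80 against C. albicans (edgeR adjusted p = 0.435 and 0.561), and the value against control was -0.14 ± 0.56 without control 1 (edgeR adjusted p = 0.937). Cmpk2, its neighbour on chromosome 12 and a nucleotide kinase, ranged from 8.45 to 10.8 CPM in C. albicans and from 8.33 to 10.9 CPM in C. tropicalis, against 8.01 to 20.4 CPM in control libraries. The Mx genes encode dynamin-like GTPases that block viruses, and Mx1 is defective in most laboratory strains. Mx2 had 0.562, 0.472 and 0.366 CPM in C. albicans and 0.457 and 0.567 CPM in C. tropicalis, against 2.11, 0.477 and 0.645 CPM in control libraries. Only control 1 stood out, on 100 counts over all libraries, and the log2 fold change for C. albicans was -1.19 ± 0.59 (edgeR adjusted p = 0.356). Without control 1 it was -0.26 ± 0.46. Mx1 ranged from 1.69 to 2.07 CPM in C. albicans and from 1.13 to 1.71 CPM in C. tropicalis, against 0.953 to 2.51 CPM in control libraries.

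Xaf1, a pro-apoptotic partner of the inhibitor XIAP, had 7.42, 3.62 and 3.72 CPM in C. albicans and 4.45 and 3.34 CPM in C. tropicalis, against 12.3, 4.41 and 5.27 CPM in control libraries. Its log2 fold change was -0.57 ± 0.44 for C. albicans and -0.91 ± 0.50 for C. tropicalis (edgeR adjusted p = 0.528 and 0.409). The C. albicans value was 0.02 ± 0.36 without control 1, and the C. tropicalis value -0.31 ± 0.40. Rtp4, a chaperone of membrane receptors, ranged from 4.25 to 15.9 CPM in C. albicans and from 6.29 to 10.5 CPM in C. tropicalis, against 5.59 to 28.9 CPM in control libraries. Ifi44 ranged from 0.420 to 1.97 CPM in C. albicans and from 0.340 to 1.48 CPM in C. tropicalis, against 0.119 to 3.08 CPM in control libraries. The highest levels of Rtp4 and Ifi44 were in control 1, and the next in C. albicans 1. The lowest Ifi44 level, in control 2, lies under the limit of 3 counts in that library. Herc6, Rtp4 and Ifit1 share 12.5%, 11.6% and 7.13% of their 50-base words with other annotated genes, so part of their counts is uncertain.

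For Ddx58, Ifih1 and Dhx58, the highest library was 1.91 to 3.49 times the lowest, below the median of the set. For Zbp1, another nucleic acid sensor, it was 5.58 times, above that median. Ddx58 encodes RIG-I, a cytosolic sensor of viral RNA (chr4:40203773-40239828, minus strand). It had 13.3, 12.4 and 11.9 CPM in C. albicans and 8.79 and 7.25 CPM in C. tropicalis, against 19.3, 10.2 and 10.7 CPM in control libraries. Both C. tropicalis libraries lay below every other library. The log2 fold change for C. tropicalis was -0.74 ± 0.29 against control (edgeR adjusted p = 0.289) and -0.64 ± 0.29 against C. albicans (edgeR adjusted p = 0.221). Without control 1 these values were -0.38 ± 0.20 (edgeR adjusted p = 0.453) and -0.64 ± 0.18 (edgeR adjusted p = 0.0689). Ifih1, which encodes the related sensor MDA5, ranged from 31.0 to 54.6 CPM in C. albicans and from 40.9 to 49.1 CPM in C. tropicalis, against 36.8 to 59.2 CPM in control libraries. Dhx58 encodes LGP2, which modulates MDA5 and RIG-I, and ranged from 4.78 to 14.4 CPM in C. albicans and from 7.48 to 12.4 CPM in C. tropicalis, against 10.3 to 16.7 CPM in control libraries. Zbp1, a sensor of Z-form nucleic acid that can trigger necroptosis, had 15.6, 4.30 and 6.77 CPM in C. albicans and 9.19 and 4.02 CPM in C. tropicalis, against 14.9, 2.80 and 3.07 CPM in control libraries. For Zbp1 the levels in C. albicans 1 and control 1 were close together and above all other libraries.

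Parp9 and Dtx3l encode partners in one ubiquitin ligase complex, and Parp14 encodes a related ADP-ribosyltransferase. The 3 genes are neighbours on chromosome 16 and the ratio of their highest to lowest library was 1.998 to 2.27. Parp9 had 34.4, 24.0 and 23.4 CPM in C. albicans and 35.6 and 28.0 CPM in C. tropicalis, against 46.8, 29.7 and 25.8 CPM in control libraries. Its log2 fold change for C. albicans was -0.32 ± 0.25 (edgeR adjusted p = 0.528), and -0.02 ± 0.20 without control 1. Dtx3l ranged from 12.9 to 22.9 CPM in C. albicans and from 17.6 to 24.2 CPM in C. tropicalis, against 15.96 to 25.9 CPM in control libraries. Parp14 ranged from 31.8 to 44.3 CPM in C. albicans and from 24.1 to 36.4 CPM in C. tropicalis, against 28.8 to 54.9 CPM in control libraries. Parp9 and Dtx3l overlap on opposite strands over 458 exon bases. The library kit did not keep strand, so reads there cannot be assigned to one of them.

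Whether colonisation with C. albicans for 30 days altered the response as a whole was addressed by its 30 estimates. Of the log2 fold changes, 23 were below 0, against 51.8% of all genes, with a median of -0.22 for the members and -0.02 for all genes. For 0 of the 30 did every C. albicans library lie above or below every control, against 9.82% of genes above and 9.57% below. Estimates ran from -1.26 for Ifit1 to 0.66 for Oasl1, with SEs of 0.15 to 1.07. Without control 1 the direction of the median turned to 0.40. Then 25 of 30 estimates were above 0 and 5 below 0, against 50.9% of all genes below 0. That fit called 0 members, with 0.00625% of all genes called. Counted in either direction, 8 of 30 members had an unadjusted p under 0.05 in it, against 19.6% of all genes. The share of all genes was not split by direction here, whereas all 8 members were higher in C. albicans. These were Oasl1, Irf7, Oas3, Isg15, Zbp1, Oasl2, Ifi44 and Ifit3, of which Oas3 had the largest estimate at 3.01 ± 0.73 (edgeR adjusted p = 0.117). With control 1 kept, Oas3 stood at 0.19 ± 1.05 (edgeR adjusted p = 0.941) and the groups overlapped. Without control 1, all 8 members remained above the threshold after edgeR adjustment, from 0.0821 for Oasl1 to 0.248 for Ifit3. The fit without control 1 leaves out the library with the highest levels, so its estimates lean upward by construction. Its SEs and p-values tend to be too small for the same reason.

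For C. tropicalis against control, 25 of the 30 log2 fold changes were below 0, against 52.1% of all genes. The median was -0.37 for the members and -0.02 for all genes. The 3 members with an unadjusted p under 0.05 were Ifit2 and Ddx58, with negative estimates, and Oasl1, with a positive one. All genes passed that bound in 8.05% of cases below and 7.33% above. Ifit2 and Ddx58 were also the 2 members with both C. tropicalis libraries below every control, against 16.5% of all genes. All 8 smooth muscle markers also lay below every control in both C. tropicalis libraries, with summed levels of 3550 and 4543 CPM, against 6367 to 12456 CPM in control libraries. With the muscle score in the model, Ifit2 stood at -0.40 ± 0.47 and Ddx58 at -0.50 ± 0.40, and neither kept an unadjusted p under 0.05. The share of all genes with such a p fell from 15.4% to 9.88%. The score was lower in both C. tropicalis libraries than in every control, so colonisation and muscle content cannot be told apart. Without control 1, 23 estimates were above 0 and 7 below 0, against 52.1% of all genes below 0, and the median was 0.23. Oasl1 and Ifit2 then had an unadjusted p under 0.05, against 12.8% of all genes, with estimates of opposite sign. That fit called 0 members, and 0% of all genes.

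**Figure D3:**
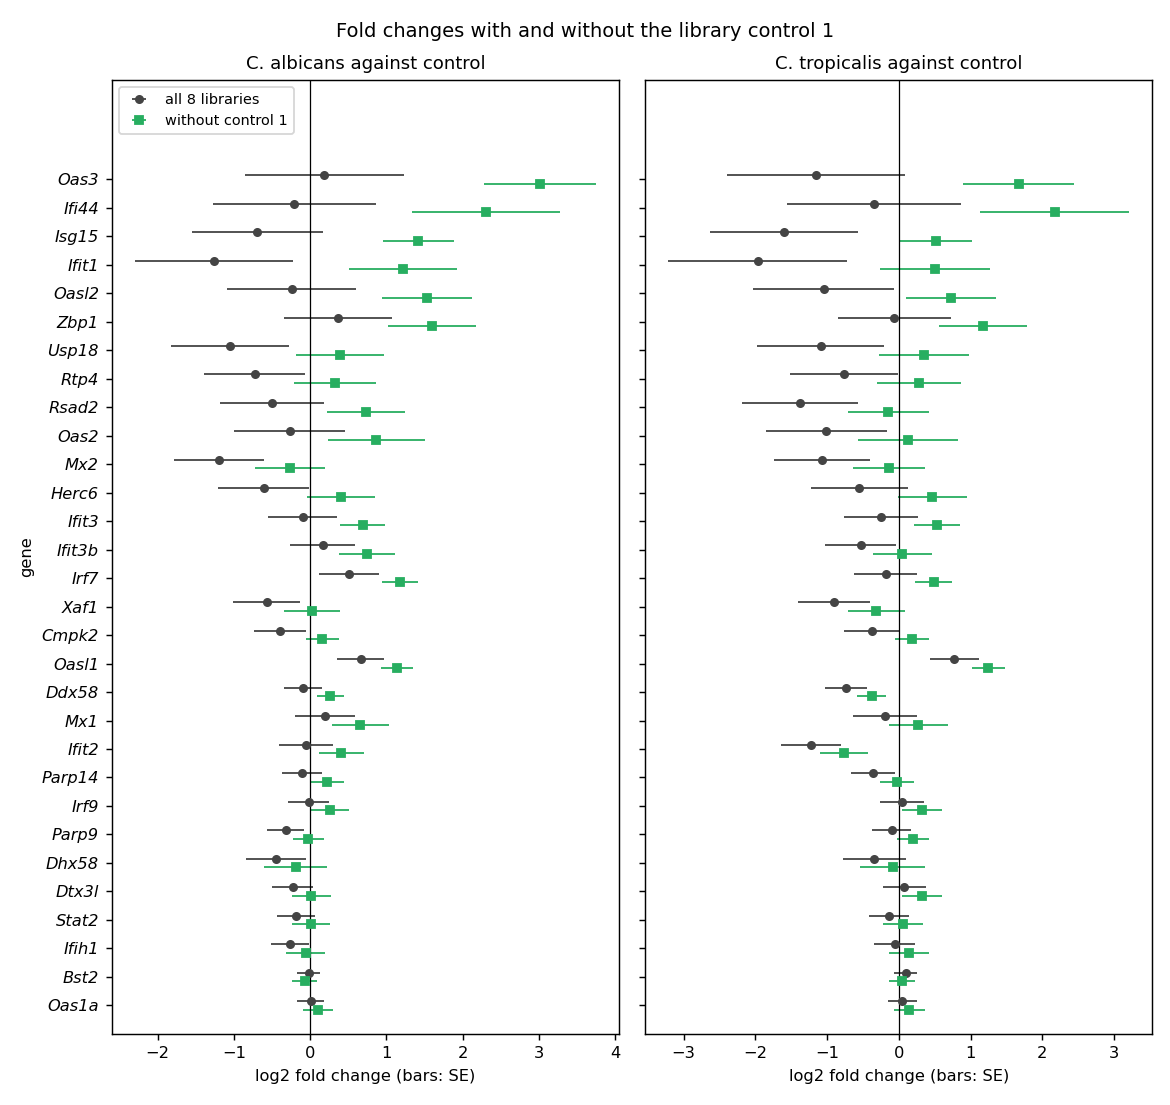
Log2 fold changes of the 30 members with SE bars are drawn for C. albicans against control on the left and C. tropicalis against control on the right. Circles use all 8 libraries and squares the fit without control 1. The squares lie to the right of the circles for most genes, with the largest shift at the top for Oas3, and close to them at the bottom for Oas1a, Bst2 and Ifih1.

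The direct comparison of the species does not use the control levels, and control 1 enters it through normalization, filtering and the estimate of spread. For C. tropicalis against C. albicans, 18 of 30 log2 fold changes were below 0, against 46.3% of all genes, with a median of -0.14 for the members and 0.04 for all genes. The direction of the median rested on single libraries: it was 0.08 without C. albicans 1 and 0.03 without C. tropicalis 2, and -0.57 without C. tropicalis 1, -0.35 without C. albicans 2 and -0.31 without C. albicans 3. Both C. tropicalis libraries lay below all C. albicans libraries for 5 members, Ifit2, Ddx58, Irf7, Ifit3b and Rsad2, against 22.4% of all genes. The 5 members are 16.7% of the set, a smaller share than over all genes. Without control 1 the test called 0 members between the species and 5.78% of all genes. Ifit3b stood at -0.70 ± 0.49 (edgeR adjusted p = 0.439). Isg15 and Ifit1 stood at -0.91 ± 1.01 and -0.71 ± 1.21 (edgeR adjusted p = 0.642 and 0.774). The 8 smooth muscle markers also lay below all C. albicans libraries, where they summed to 9341 to 27000 CPM. When the muscle score was added to the model, the Ifit2 difference was 0.03 ± 0.60 and that of Irf7 0.58 ± 0.68, so the direction of both depended on that term. The share of all genes with an unadjusted edgeR p under 0.05 fell from 23.2% to 6.48% in that model. The score was lowest in both C. tropicalis libraries, so species and muscle content cannot be told apart.

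The interferon genes themselves had almost no counts. Of 21 interferon ligand genes, 17 had 0 counts in all 8 libraries, which allows up to 0.157 to 0.183 CPM per library. The remaining 4 were Ifnz with 5 counts over all libraries, Ifng with 2, and Ifnk and Ifnl2 with 1 each. No counts were thus recorded for interferon-alpha and interferon-beta genes in any group. The limit covers counting error only, and sequence shared between similar ligand genes was not examined, so these zeros do not establish absence. Ifnar1, the first receptor chain, was even, at 38.1 to 40.2 CPM in C. albicans and 35.9 to 40.3 CPM in C. tropicalis, against 36.6 to 38.4 CPM in control libraries. None of the 6 receptor genes passed the threshold. The smallest p values in this list belonged to the interferon-gamma receptor chain Ifngr1 for C. albicans (-0.36 ± 0.13, edgeR adjusted p = 0.268), to Il10rb for C. tropicalis (0.24 ± 0.11, edgeR adjusted p = 0.343), and to Ifngr2 between the species (0.37 ± 0.15, edgeR adjusted p = 0.179). Il10rb encodes the chain shared by the receptors of interferon-lambda and interleukin-10.

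Other parts of the pathway gave 0 called genes in every list and comparison. The test called 0.0435%, 0.031% and 0% of all genes in the 3 comparisons, so these zeros are not particular to the pathway. Among 5 JAK-STAT genes, Stat3 stood at 0.26 ± 0.11 for C. albicans (edgeR adjusted p = 0.317). The kinase Jak2 stood at 0.18 ± 0.13 for C. tropicalis and 0.25 ± 0.13 between the species (edgeR adjusted p = 0.526 and 0.291). Among 17 sensors and adaptors, Mavs, the mitochondrial adaptor of RIG-I and MDA5, stood at 0.43 ± 0.13 for C. albicans (edgeR adjusted p = 0.245). The adaptor Myd88 stood at 0.29 ± 0.11 for C. tropicalis (edgeR adjusted p = 0.290), and the factor Irf1 at -0.40 ± 0.17 between the species (edgeR adjusted p = 0.209). Socs1, a feedback inhibitor of JAK kinases, had 9.16, 10.7 and 11.8 CPM in C. albicans, against 3.14, 5.24 and 6.67 CPM in control libraries. These groups did not overlap, and the log2 fold change was 1.07 ± 0.28 (edgeR adjusted p = 0.201). Every C. albicans library lay above every control for 1 of the 9 tested genes in the list of regulators, against 9.82% of all genes. The related Socs3 stood at -0.52 ± 0.30 for C. tropicalis against control (edgeR adjusted p = 0.435) and at -0.97 ± 0.31 against C. albicans (edgeR adjusted p = 0.110).

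A further 49 interferon stimulated genes outside the set of 30 were tested, with medians of -0.26 for C. albicans and -0.17 for C. tropicalis against control and 0.03 between the species. Control 1 was the highest library for 16 of these 49, against 13.2% of all genes. Ddx60, a helicase that aids RIG-I, had 9.50, 3.78 and 4.45 CPM in C. albicans and 2.28 and 1.70 CPM in C. tropicalis, against 22.7, 3.57 and 1.94 CPM in control libraries. Apol9a showed the same high library, with 15.1 CPM in control 1 and at most 4.27 CPM elsewhere. Both, like Ifnar1, were singled out after their values had been seen. The smallest p values belonged to Ifitm2, which encodes a membrane protein that blocks virus entry (0.62 ± 0.17 for C. albicans, edgeR adjusted p = 0.210), and to Slfn9. Slfn9 stood at 0.76 ± 0.24 for C. tropicalis against control (edgeR adjusted p = 0.239) and 1.25 ± 0.24 against C. albicans (edgeR adjusted p = 0.0646). Among 14 GTPases induced mainly by interferon-gamma, control 1 was highest for 5. Gbp2 stood at 0.73 ± 0.35 for C. albicans (edgeR adjusted p = 0.339), Gbp9 at -0.80 ± 0.29 for C. tropicalis (edgeR adjusted p = 0.267) and Gbp5 at -0.66 ± 0.35 between the species (edgeR adjusted p = 0.292).

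Markers of B cells, T cells, macrophages and plasmacytoid dendritic cells did not follow the members in control 1. All 8 B cell markers were detected, and their summed level was 11.4 to 63.9 CPM in C. albicans and 67.4 to 94.6 CPM in C. tropicalis, against 17.3 CPM in control 1 and 237 and 279 CPM in controls 2 and 3. The 8 T cell markers summed to 13.5 to 20.01 CPM in C. albicans and 14.5 to 15.8 CPM in C. tropicalis, against 9.77 CPM in control 1 and 33.8 and 29.1 CPM in controls 2 and 3. Macrophage markers, also 8 of 8 detected, summed to 149 to 217 CPM in C. albicans and 163 to 247 CPM in C. tropicalis, against 118 CPM in control 1 and 180 and 231 CPM in controls 2 and 3. Siglech, the defining marker of plasmacytoid dendritic cells, was at 0.262 to 0.506 CPM in C. albicans and 0.567 to 0.685 CPM in C. tropicalis, against 0.400, 0.774 and 1.183 CPM in control libraries. The list of 8 markers for that cell type is dominated by Klk1, which other cells of the colon also express, so its sum of 568 to 828 CPM in C. albicans and 1168 to 1246 CPM in C. tropicalis, against 430 to 1247 CPM in control libraries, does not describe these cells. The library with the highest interferon stimulated genes thus had the lowest summed T cell and macrophage markers of the 8, and lower B cell markers than the other controls. By mean log2 CPM centred on the 8 libraries, control 1 was the highest control for colon epithelium (0.13 against -0.05 and -0.47). It was also the highest for smooth muscle (0.53 against 0.15 and -0.58) and enteric neurons and glia (0.37 against -0.03 and -0.25). For fibroblasts it lay between controls 2 and 3, and for endothelium and adipocytes below both. The part of these cell types in the levels of the members was not tested.

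**Figure D4:**
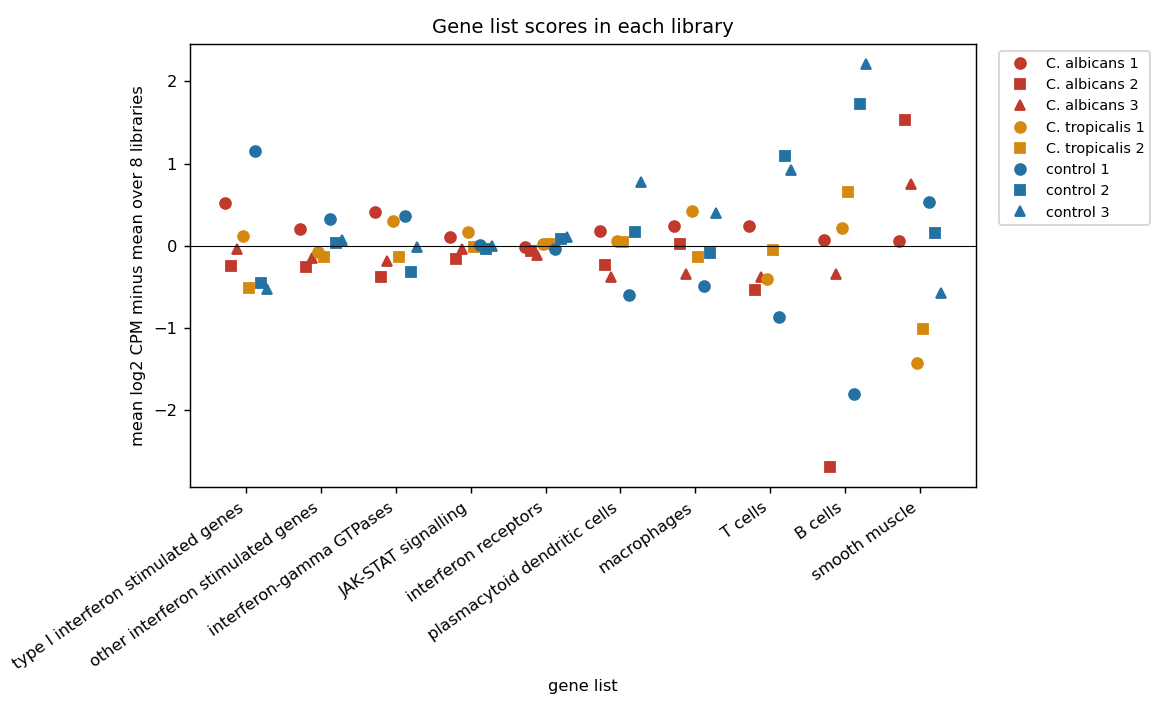
Points give, for each library, the average log2 CPM of a gene list relative to its average over the 8 libraries, drawn for the 30 type I interferon stimulated genes and for related pathway and cell type lists. The members stand at 0.52, -0.25 and -0.05 in C. albicans and 0.12 and -0.52 in C. tropicalis, against 1.16, -0.46 and -0.53 in control libraries 1 to 3. Control 1 lies at the bottom of the macrophage and T cell columns.

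Libraries held 16195376 to 19761098 counts, and the members 100 to 11835 counts each over the 8 libraries. The colon epithelial markers, 9 of 9 detected, summed to 13401 to 20740 CPM over the libraries, so epithelium was present in each. Single markers differed widely. Cdx2 had 26.3 and 28.6 CPM in C. tropicalis and 26.9 CPM in control 3, against 192 to 470 CPM in the other libraries. Car1 had 2231 and 2255 CPM in C. tropicalis and 1602 CPM in control 3, against 180 to 432 CPM in the others. The cause of these differences was not tested.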

How the data were processed

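Bulk RNA sequencing of colon was analysed in 8 libraries: C. albicans (3), C. tropicalis (2) and control (3). The deposited table holds raw counts of reads per gene for 52636 Ensembl identifiers, made by the authors. Alignment with TopHat2 2.0.12, counting with HTSeq (given as 6.1), DESeq 1.18.0 and the build mm10 are listed in the submitters' processing notes. The sources used here do not give the strand setting or annotation release, and per the labels' protocols the NEBNext Ultra kit was used, which does not keep strand. Symbols came from GENCODE M21, which held 52403 of the identifiers; the rest carried 0.00317% of counts.

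Libraries held 16195376 to 19761098 counts. The limit behind a zero was set at 3 counts, which is 0.157 to 0.183 CPM and covers counting error only. Replicate libraries differed by far more than sampling noise, with chi-square per degree of freedom of 21.0 to 80.1, so all were kept. Separate mice are not recorded in the labels. P-values therefore reflect variation among libraries, which may be technical.

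One fit of all 8 libraries in edgeR 4.0.16 (R 4.3.3; TMM, filterByExpr, quasi-likelihood F-test) gave 3 contrasts, with 16107 genes tested, 5 residual degrees of freedom. The biological coefficient of variation common to all genes was 0.243. Benjamini-Hochberg adjustment ran over all tested genes, with a threshold of 0.05. The SE of a log2 fold change was obtained by dividing its absolute value by √F. The fit was tested on simulated counts with known changes. The 50-base words of each member's exons were searched in all other annotated transcripts to find shared reads.

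The score of a list is the mean over its genes of log2 CPM centred on the 8 libraries. The members and the lists were chosen with earlier results of these data known, so no test was made over a list. By the rule for named genes, full values were given for the 5 members with the smallest p in each contrast and for Isg15, Ifit1, Irf7, Stat2 and Bst2. Each pathway list gave its member with the smallest p per contrast, and each ligand with counts was named. Alternatives were size factors of DESeq2, upper-quartile factors, the DESeq2 1.42.0 test, limma-voom (limma 3.58.1), no filter, CPM of at least 1 in 3 libraries, only the groups compared, a replicate block, a smooth muscle covariate, and each library left out. One gene of the JAK-STAT list stayed in the tests and counts and is not reported here.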

Additional observations from a re-analysis of the deposited data

How the results depend on the processing

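None of the 30 members passed 0.05 in any of the 17 alternative fits of each comparison. The smallest adjusted p among them was 0.0504 in edgeR, for Ifit2 between the species when only those groups were fitted. That fit called 5.47% of all genes. The shares of all genes called ran from 0% with the replicate block to 10.5% with DESeq2 between the species. Where a fit called almost no gene, a count of 0 members says little about the set. Leaving out one library at a time moved the median log2 fold change of the members between -0.49 and 0.40 for C. albicans against control and between -0.76 and 0.23 for C. tropicalis against control, where the upper ends are the fits without control 1, and between -0.57 and 0.08 between the species. Under the other alternatives the medians lay between -0.28 and -0.02 and between -0.45 and -0.21. In the same fits with one library left out, the estimates for C. albicans against control ran from -1.17 to 1.42 for Isg15, from -1.81 to 1.22 for Ifit1, from -1.52 to 0.39 for Usp18, from -0.96 to 0.0241 for Xaf1, from -0.42 to 0.0234 for Stat2 and from -0.10 to 0.0745 for Bst2. For C. tropicalis against control they ran from -2.22 to 0.51 for Isg15, from -2.89 to 0.51 for Ifit1, from -0.56 to 0.48 for Irf7, from -0.32 to 0.0539 for Stat2 and from -0.01775 to 0.21 for Bst2, and between the species from -0.17 to 0.28 for Stat2.

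Whether the numbers of the replicates pair the libraries was not settled. Same-numbered deviations over all genes correlated at -0.39, -0.08 and -0.13 between C. albicans and control. They correlated at -0.02 and 0.03 between C. tropicalis and control, and at 0.16 and 0.15 between the species. Deviations from means of 2 or 3 libraries depend on one another, so these values cannot exclude pairing. Library 1 was the highest of its group for 24 members in C. albicans, 27 in C. tropicalis and 29 in control. The shares over all genes were 38.5%, 46.8% and 35.6%. A fit with the replicate block called 0 members and 0% of all genes in each comparison, so its count says nothing particular to the members. Their medians in that fit were -0.03, -0.42 and -0.36. Isg15 for C. albicans stood at 0.0168 with the replicate block and at 0.17 under limma-voom. With the smooth muscle covariate, Bst2 stood at 0.16 for C. albicans and -0.21 for C. tropicalis against control, and Irf7 at 0.72 for C. tropicalis. Between the species that covariate gave 0.0314 for Ifit2, 0.58 for Irf7, 0.19 for Ifit3b, 0.0334 for Rsad2, 0.27 for Ifit1, -0.53 for Stat2 and -0.38 for Bst2. The cause was not tested. With 2 or 3 libraries a group, SEs near 1 for Isg15, Ifit1, Oas3 and Ifi44 leave differences of several fold undetectable.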
